A study of Rattus norvegicus with 4 samples.

Results

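The 6 genes described here encode the plasminogen activators urokinase (Plau) and tissue plasminogen activator (Plat), the urokinase receptor (Plaur) and 3 members of the serpin family (Serpine2, Serpinb2 and Serpinf1). They were taken by gene symbol from the 23608 entries of the deposited count table, and all 6 reached the expression minimum of 1 CPM (a read count scaled to library size) in at least 1 library, as did 13634 entries in all. Primary microvessels of wild-type rats, taken from soft connective tissue under the skin and labelled as vascular cells, were kept on soft or stiff extracellular matrix (ECM), each without or with A83-01. That compound blocks the type I receptor kinases through which TGF-beta and activins signal. Each of the 4 resulting groups is represented by 1 mRNA library, and values in fours run from soft without and then with A83-01 to stiff without and then with A83-01. The series was designed to learn how stiffness and the inhibitor act on microvessels and on pericytes turning into myofibroblasts. The sources used here do not state the stiffness values, inhibitor dose, culture time or the age of the animals.

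Urokinase and tissue plasminogen activator are secreted serine proteases that cut plasminogen into plasmin, a broad protease that dissolves fibrin and degrades matrix proteins. Urokinase is held on the cell surface by its receptor, a protein with a lipid anchor, whereas tissue plasminogen activator acts mainly on fibrin and is released by endothelium. Serpins are proteins that trap a protease by offering it a bait loop. Serpine2 encodes protease nexin-1, an inhibitor of thrombin, urokinase and plasmin, and Serpinb2 encodes plasminogen activator inhibitor-2. Serpinf1 encodes pigment epithelium-derived factor (PEDF), a secreted antiangiogenic protein that has the serpin fold but inhibits no protease, so the group's name as inhibitors does not describe it.

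Depth was 32271844 to 33416200 counts per library. Trimmed mean of M-values (TMM) scaling factors were 0.876 for stiff and 1.03 to 1.07 for the other 3, and the 10 most abundant genes took 21.8% of the counts of the stiff library against 11.7% to 14.0% elsewhere. Scaling by total counts instead shifted log2 ratios of well-counted genes by −0.234 for stiff against soft and by 0.284 for stiff with A83-01 against stiff. For genes with few counts the shift was smaller: Serpinb2 went from −3.23 to −3.26 in stiff against soft. The vascular labels were checked on marker levels. The endothelial Cdh5 stood at 730 to 1325 CPM, the mural Pdgfrb at 880 to 1591 CPM and the fibroblast collagen Col1a1 at 17580 to 69480 CPM. Of the keratinocyte markers, Krt5, Krt14 and Dsg3 had 0 counts in all 4 libraries, and Krt1 and Perp had at most 25 and 4 counts. Krt10, at 1.52 to 2.69 CPM, and Dsp, at 0.478 to 2.75 CPM, were detected in every library. With 1 library a group, differences between library pairs have no replicate check, and the 95% intervals in parentheses cover counting error only. The labels write the library codes of the soft groups in another form than those of the stiff groups, so stiffness and a separate preparation cannot be told apart. In bulk RNA, more cells of a type and more RNA per cell cannot be told apart either.

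Promoter sequences are shown for Serpine2, Plau and Serpinb2 and for the receptor gene, Plaur. Serpinb2 had at most 48 counts and reached the expression minimum through the soft A83-01 library alone, so its difference with stiffness is conditioned by that minimum. Each is the 250 bases before the RefSeq transcription start on build GRCr8, 5′ to 3′ on the gene's own strand, with matches to the AP-1 motif (TGANTCA) and the SMAD motif (CAGAC, or GTCTG on the other strand) in capitals. AP-1 is bound by the FOS and JUN proteins and SMAD sites by the transcription factors of TGF-beta signalling. Serpine2 (chr9:88637203-88637452, minus strand) and Plau (chr15:3511988-3512237, minus strand) were both higher in the stiff libraries. Serpinb2 (chr13:24055771-24056020, plus strand) was lower there, and Plaur (chr1:89181113-89181362, plus strand) differed little.
Serpine2: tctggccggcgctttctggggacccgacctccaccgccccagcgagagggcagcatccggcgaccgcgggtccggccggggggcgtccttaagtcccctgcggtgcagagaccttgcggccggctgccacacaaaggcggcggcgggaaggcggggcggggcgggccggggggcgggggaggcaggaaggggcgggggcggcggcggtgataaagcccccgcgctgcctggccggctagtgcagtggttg
Plau: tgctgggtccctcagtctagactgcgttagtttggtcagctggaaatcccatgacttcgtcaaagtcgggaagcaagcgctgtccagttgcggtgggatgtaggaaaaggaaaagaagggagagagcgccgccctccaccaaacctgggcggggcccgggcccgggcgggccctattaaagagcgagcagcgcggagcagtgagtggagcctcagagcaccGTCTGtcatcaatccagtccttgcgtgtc
Serpinb2: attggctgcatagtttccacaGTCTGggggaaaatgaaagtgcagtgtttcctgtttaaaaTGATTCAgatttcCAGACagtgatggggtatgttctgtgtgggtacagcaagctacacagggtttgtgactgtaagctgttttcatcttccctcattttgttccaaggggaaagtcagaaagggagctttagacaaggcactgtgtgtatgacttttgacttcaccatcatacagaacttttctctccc
Plaur: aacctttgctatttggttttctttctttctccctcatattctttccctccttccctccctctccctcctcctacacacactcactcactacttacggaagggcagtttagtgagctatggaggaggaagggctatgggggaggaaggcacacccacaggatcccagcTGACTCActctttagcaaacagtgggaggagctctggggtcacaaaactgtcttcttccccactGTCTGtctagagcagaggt
The Serpine2 window was 76.8% G and C, a value reached or passed by 2.38% of the 33469 rat windows of this length, whose median was 51.2%. Serpinb2, at 43.2%, lay among the lowest 22.67%. AP-1 matches were found in Plaur, 83 bases before the start, and in Serpinb2, 189 bases before it. This motif reads the same on both strands and was present in 6.34% of all windows. SMAD matches were found in Plau, Plaur, Serpinb2 and Serpinf1, and 42.9% of all windows held that 5-base motif. The CCAAT motif was found in Serpinb2 (34.0% of all windows), and matches to the NF-kB motif (6.33%) and the CArG motif of serum response factor (1.5%) in none of the 5 member windows searched, all on both strands. The AP-1 and SMAD matches did not overlap. These are matches of letters and not measured binding sites. Plat was not searched.

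Urokinase RNA was higher on stiff matrix in both inhibitor settings, and tissue plasminogen activator was not. Plau stood at 22.3 CPM in soft, 14.7 CPM in soft with A83-01, 47.7 CPM in stiff and 59.8 CPM in stiff with A83-01. Both stiff libraries lay above both soft libraries, and all 4 values were separated by more than counting error. Plau was 2.13-fold higher (1.95 to 2.34) in stiff than in soft and 4.06-fold higher (3.69 to 4.5) when A83-01 was present in both. With both factors fitted as additive terms over the 4 libraries, Plau rose by 1.56 on the log2 scale on stiff matrix (SE 0.258, adjusted p = 0.0425 from edgeR's quasi-likelihood test, corrected over all tested genes). The call was lost with relative log expression size factors (quasi-likelihood adjusted p = 0.0566) and with the inhibitor left out of the model, and over the 7 alternatives the quasi-likelihood, DESeq2 or limma adjusted p for Plau ranged from 1.17e-05 to 0.114. Scaled by total counts, the log2 ratio of stiff against soft was 0.86, under 2-fold.

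The inhibitor went with opposite differences of Plau on the 2 matrices. Plau was 1.52-fold lower (1.36 to 1.71) with A83-01 on soft and 1.26-fold higher (1.17 to 1.34) with A83-01 on stiff. The response on stiff minus that on soft was 0.93 on the log2 scale, with a counting interval of 0.74 to 1.12. Opposite responses with counting intervals that exclude equality were seen for 8.49% of all tested genes, Plau alone among the members.

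Plat was the more abundant activator. It stood at 197 CPM in soft, 136 CPM in soft with A83-01, 335 CPM in stiff and 94.9 CPM in stiff with A83-01. The stiff library was the highest and the stiff library with A83-01 the lowest, so the soft values lay between the 2 stiff values. Stiff against soft, Plat was 1.70-fold higher (1.65 to 1.76) without the inhibitor and 1.43-fold lower (1.37 to 1.5) with it. Such opposite stiffness ratios occurred in 8.65% of all tested genes, and Plat was the sole member among them. A83-01 went with a 1.45-fold lower level (1.39 to 1.5) on soft and a 3.53-fold lower level (3.40 to 3.67) on stiff, a difference between responses of −1.29 on the log2 scale (−1.37 to −1.21). The additive quasi-likelihood test called Plat for neither factor. Its log2 effect was 0.13 for stiffness (SE 0.333, adjusted p = 0.841) and −1.18 for the inhibitor (SE 0.337, adjusted p = 0.281).

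**Figure D1:**
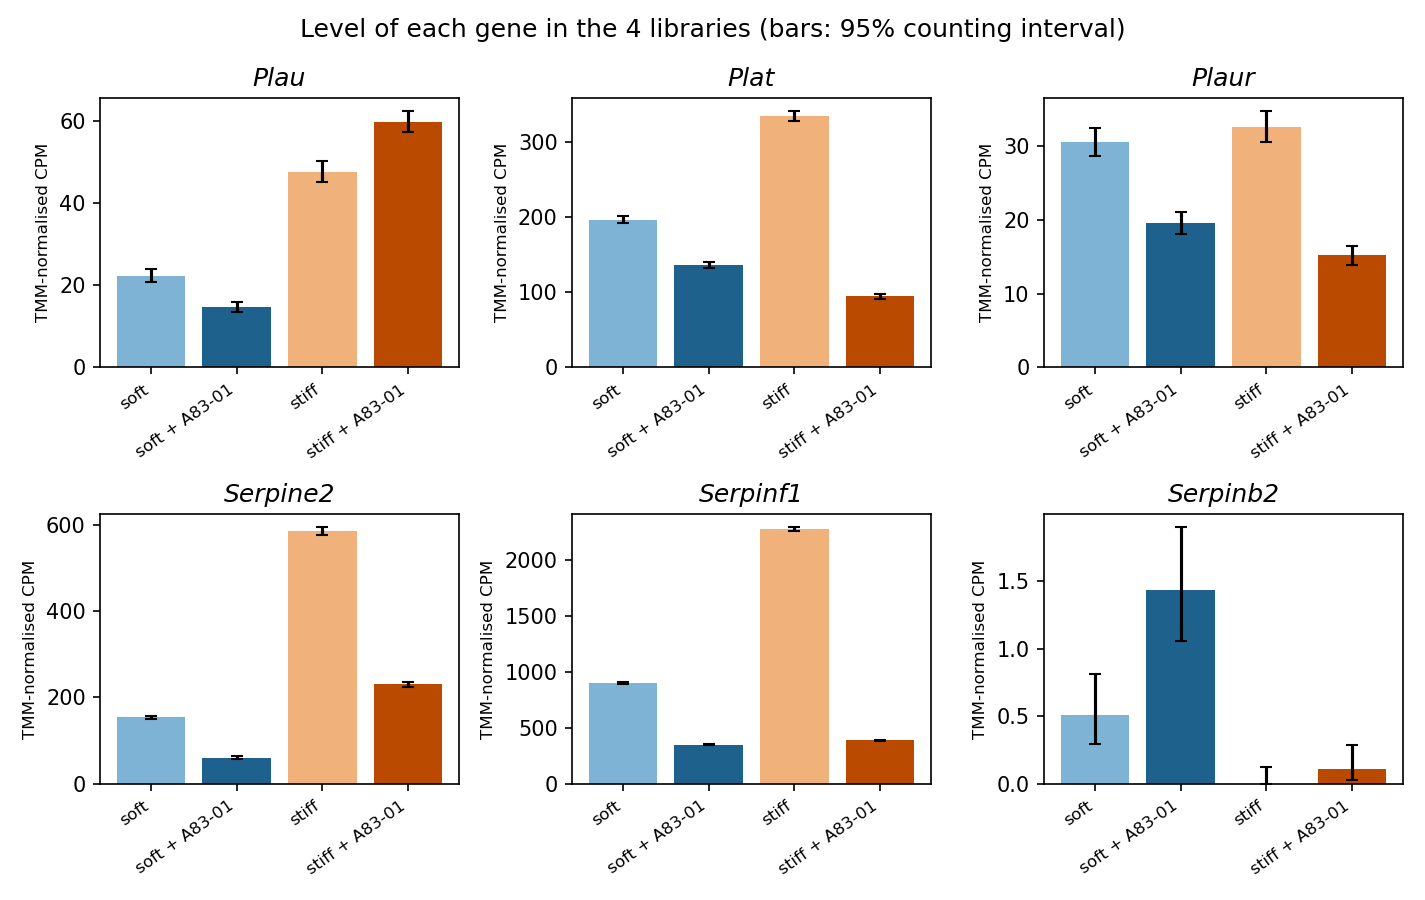
TMM-normalised CPM of the 6 genes (vertical axes, each starting at 0 with its own range) in the 4 libraries (horizontal axes), with black bars for the exact 95% Poisson counting interval of each library. Plau is higher in both stiff libraries (47.7 and 59.8 CPM) than in both soft ones, and Serpinf1 stands out in the stiff library without A83-01 (2278 CPM).

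The urokinase receptor was lower with A83-01 on both matrices and near equal between matrices. Plaur stood at 30.6 CPM in soft, 19.6 CPM in soft with A83-01, 32.7 CPM in stiff and 15.2 CPM in stiff with A83-01. Both untreated libraries lay above both A83-01 libraries. Stiff against soft, the ratio was 1.07 (0.978 to 1.17), an interval that includes equality, and its log2 value of 0.10 became −0.14 with total-count scaling. With A83-01 in both, Plaur was 1.29-fold lower (1.15 to 1.45) on stiff. The inhibitor libraries were 1.56-fold lower (1.41 to 1.72) on soft and 2.15-fold lower (1.93 to 2.39) on stiff, where the log2 ratio was −1.10, or −0.82 with total-count scaling, under 2-fold. In the additive quasi-likelihood test the inhibitor effect of −0.87 (SE 0.178) did not pass, with an adjusted p of 0.194.

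Protease nexin-1 RNA was higher on stiff matrix and lower with A83-01, in both settings of the other factor. Serpine2 stood at 154 CPM in soft, 60.5 CPM in soft with A83-01, 586 CPM in stiff and 230 CPM in stiff with A83-01. The stiff libraries were again both above the soft ones, and within each matrix the A83-01 library was the lower. Serpine2 was 3.81-fold higher (3.69 to 3.93) on stiff without the inhibitor and 3.80-fold higher (3.63 to 4.0) with it. A83-01 libraries were 2.54-fold lower (2.42 to 2.68) on soft and also 2.54-fold lower (2.48 to 2.61) on stiff, and the difference between both responses was −0.0015 on the log2 scale (−0.085 to 0.082). That near-equality rests on the scaling: with total counts the inhibitor ratios were −1.34 on soft and −1.06 on stiff, a difference of 0.27, and the stiffness ratios 1.70 and 1.97. On stiff matrix Serpine2 rose by 1.93 (SE 0.156, edgeR quasi-likelihood adjusted p = 0.0116). The additive model takes the difference between responses as its spread, and a gene with nearly equal responses is favoured by it. With the inhibitor left out of the model the adjusted p in edgeR's quasi-likelihood test was 0.249. The inhibitor effect, −1.35 (SE 0.154), did not pass over all genes, with an adjusted p of 0.107 in the quasi-likelihood test and 2.09e-08 by DESeq2.

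PEDF was the most abundant of the 6 and the member with the lowest ratio under the inhibitor. Serpinf1 stood at 901 CPM in soft, 349 CPM in soft with A83-01, 2278 CPM in stiff and 387 CPM in stiff with A83-01. Both untreated libraries lay above both A83-01 libraries, with the stiff library the highest. The gene was 2.53-fold higher (2.49 to 2.56) in stiff than in soft, but 1.11-fold higher (1.08 to 1.13) when A83-01 was in both. It was 2.58-fold lower (2.52 to 2.64) with A83-01 on soft and 5.89-fold lower (5.78 to 6.0) on stiff. The 2 responses differed by −1.19 on the log2 scale (−1.23 to −1.15), and a difference of at least 1 in either direction was seen in 10.2% of tested genes. Neither factor passed the additive quasi-likelihood test, in which the inhibitor effect was −1.96 (SE 0.351, adjusted p = 0.164), while DESeq2 gave an adjusted p of 9.14e-09.

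Plasminogen activator inhibitor-2 was scarce everywhere and near 0 in the stiff libraries. Serpinb2 had 17 counts in soft, 48 in soft with A83-01, 0 in stiff and 4 in stiff with A83-01. In CPM these were 0.508 (0.296 to 0.813), 1.43 (1.06 to 1.90), 0 (up to 0.103 for a floor of 3 counts) and 0.112 (0.0306 to 0.287), with exact Poisson intervals. Soft libraries were higher than stiff ones, and the gene reached the expression minimum through the soft A83-01 library alone, so it had to differ between libraries to be tested. With the 0 count of stiff set to the floor of 3, Serpinb2 was 4.92-fold lower in stiff than in soft. The counting interval of that pair began at 3.58-fold and had no upper bound. With A83-01 in both, it was 8.63-fold lower (4.67 to 48.8). With A83-01 on soft it was 2.63-fold higher (1.59 to 5.23), and on stiff 4 counts against 0 gave an interval that includes equality. The additive quasi-likelihood test gave −4.08 (SE 0.907, adjusted p = 0.0764) for stiffness, which did not pass, while DESeq2 (adjusted p = 0.0476) and limma-voom (adjusted p = 0.04998) called it lower, just under 0.05. Serpinb2 is typically made by activated macrophages. Of 10 macrophage and leukocyte markers past the minimum, 9 shared its direction in stiff against soft, and 1, Lyz2, did not. The summed level of 11 macrophage and leukocyte markers was 126 and 174 CPM in soft without and with A83-01, and 86.6 and 93.9 CPM in the stiff pair. Their part in the Serpinb2 result was not tested. Of these markers, 1 rose (Lyz2) and 2 fell (Adgre1 and Cd74) on stiff matrix in the quasi-likelihood test. At an unadjusted p of at most 0.05 in that test, 1 was higher (Lyz2) and 7 were lower (Adgre1, Cd14, Cd68, Cd74, Csf1r, Fcer1g and Ptprc). Lyz2, which was 14.3-fold higher (11.2 to 20.0) in stiff than in soft, ran opposite to Serpinb2. Cd74 reached the expression minimum through the soft libraries alone (5.74 and 10.8 CPM), so its fall is conditioned by that minimum. Cd74 had 0 counts in stiff, and the other 10 markers were above the floor of 3 counts in every library.

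**Figure D2:**
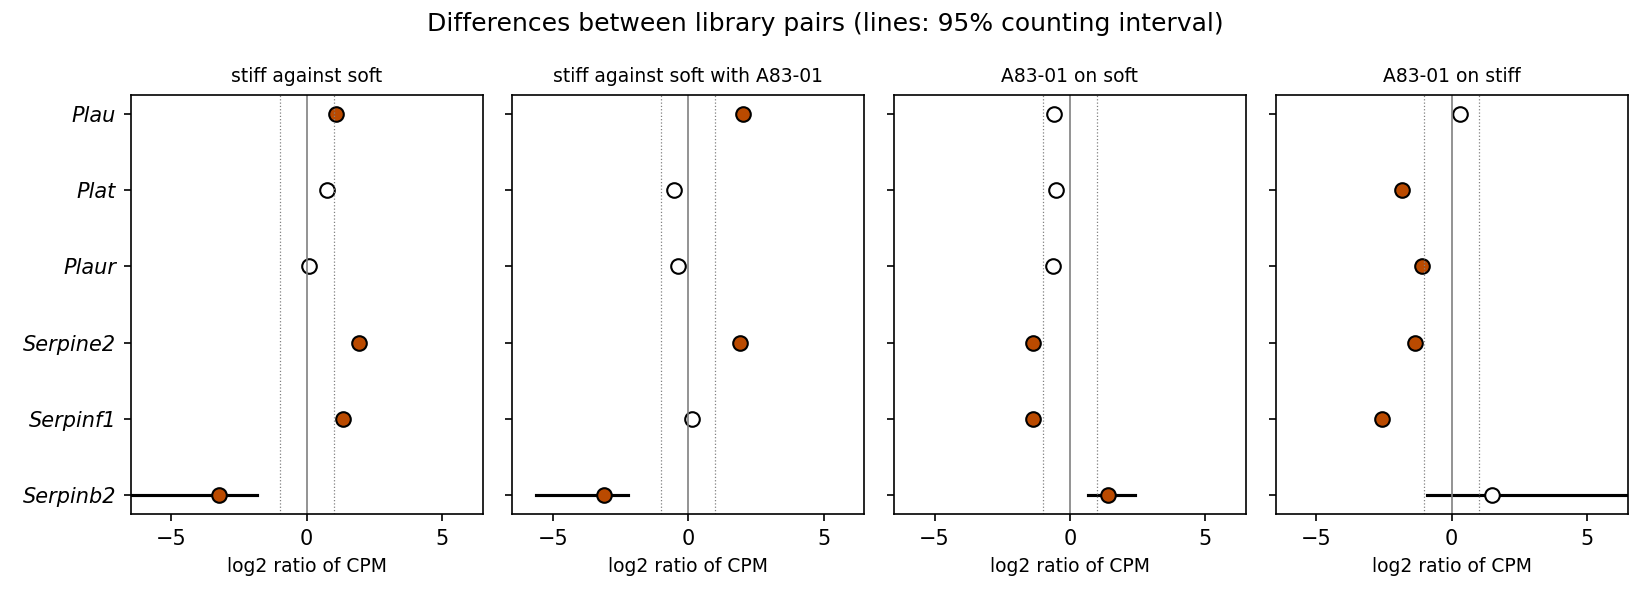
Log2 ratio of TMM-normalised CPM (horizontal axes, prior count 2) for each gene in the 4 library pairs, with lines for the 95% counting interval, drawn to the edge where a count of 0 leaves it without a bound, and dotted lines at 2-fold. Filled points are at least 2-fold apart with an interval excluding equality: Serpine2 is filled in all 4 panels, and Plau in the 2 stiffness panels.

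Counted over the group, 2 of 6 members rose with stiffness in the additive quasi-likelihood test and 0 fell, against 2.35% of all genes that rose and 3.29% that fell. DESeq2 and limma-voom each called the same 2 genes up, where they called 4.21% and 3.43% of all genes up. Both also called Serpinb2 down (5.41% and 4.56% of all genes), a gene that the minimum admitted through a soft library alone, so that call is not counted as support. Without any minimum its quasi-likelihood adjusted p was 0.0777. For the inhibitor the quasi-likelihood test called 0 of 6 in either direction, with a background of 0% higher and 0.044% lower. Before adjustment 4 were lower at p of at most 0.05 (Plat, Plaur, Serpine2 and Serpinf1), as were 6.04% of all genes. DESeq2 called 3 lower (Plat, Serpine2 and Serpinf1), against 1.79% of all genes, and limma-voom 0. The inhibitor fit depended on scaling: total counts alone gave 563 genes up and 271 down over the whole table, in place of 0 and 6.

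In library pairs, a gene was counted when at least 2-fold apart with an interval excluding equality. Stiff against soft, 3 members were higher (5.33% of all genes) and Serpinb2 was lower (8.58%), with a members' median log2 ratio of 0.93 against 0.00045 for all genes. With A83-01 in both, 2 were higher (6.88%) and 1 lower (6.72%), with a median of −0.11 against 0.01. A83-01 on soft matrix left 1 higher (2.18%) and 2 lower (2.44%), with a median of −0.62 against −0.0014. The 1 lower with A83-01 in both and the 1 higher on soft were Serpinb2 again. Since the minimum admitted Serpinb2 through the soft A83-01 library alone, it is not taken as support in any of these pairs. The members' medians still include Serpinb2. With A83-01 in both, 3 members lay above 0 and 3 below, Serpinb2 among the latter, so the sign of that median rests on Serpinb2. A83-01 on stiff matrix left 0 higher (7.8%) and 4 lower (4.47%), with a median of −1.22 against 0.02. With total-count scaling the share of higher genes among all genes counted went from 38.3% to 24.4% for stiff against soft and from 63.6% to 81% for A83-01 on stiff.

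Levels were compared between genes per transcript length, as the authors' FPKM. Serpinf1 was the highest member in every library, at 484, 187, 1033 and 215.5 FPKM. Plat stood at 64.3, 44.3, 92.5 and 32.2 FPKM and Plau at 9.88, 6.47, 17.8 and 27.5 FPKM in the same order. Per length there was thus 6.51, 6.85 and 5.19 times as much Plat as Plau in the first 3 libraries, and 1.17 times in stiff with A83-01. Serpine2 stood at 62.4, 24.4, 201 and 96.9 FPKM, so that Plat was level with it in soft (ratio 1.03), at 1.82 times its level in soft with A83-01, and at 0.461 and 0.333 of its level in stiff without and with A83-01. Plaur, at 25.8, 16.5, 23.3 and 13.3 FPKM, exceeded its ligand Plau except in stiff with A83-01, where Plau was 2.07 times the receptor.

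**Figure D3:**
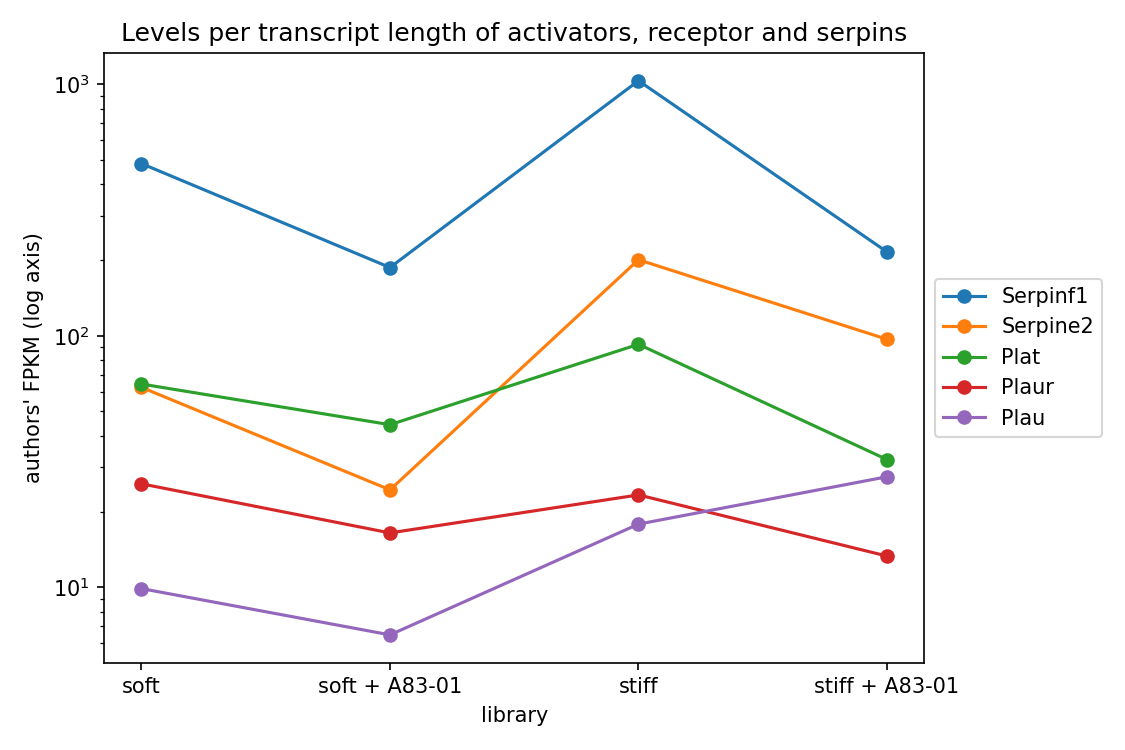
The authors' FPKM (vertical log axis) of Serpinf1, Serpine2, Plat, Plaur and Plau in the 4 libraries (horizontal axis), where lines only join the values of a gene. Serpinf1 is the highest in every library, Serpine2 is higher in the stiff libraries, and Plau comes close to Plat in stiff with A83-01. Serpinb2, at most 0.602 FPKM, is not drawn.

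Of 5 other inhibitors of plasminogen activators and plasmin analysed here, 3 reached the minimum, and the quasi-likelihood test called 0 of them for stiffness and 0 for the inhibitor. DESeq2 called 0 for stiffness and A2m lower with the inhibitor, limma-voom called 0, and the unadjusted quasi-likelihood p was at most 0.05 for A2m with the inhibitor and for Serpinf2, lower with stiffness. Their median log2 ratio in stiff against soft, −1.10, was that of Serpini1. Alpha-2-antiplasmin, Serpinf2, stood at 2.48 and 0.929 CPM in soft and stiff, and the tissue activator inhibitor neuroserpin, Serpini1, at 1.10 and 0.482 CPM. Serpini1 reached the minimum through the untreated soft library alone, so its lower level in stiff and the median above are conditioned by the minimum. The broad protease trap alpha-2-macroglobulin, A2m, reached the minimum through the untreated libraries alone, so its inhibitor tests are conditioned by it. It had 45 counts in soft, 4 in soft with A83-01, 82 in stiff and 0 in stiff with A83-01. With the 0 count set to the floor of 3, A2m was 33.5-fold lower with A83-01 on stiff. The counting interval of that pair began at 26.7-fold and had no upper bound. Serpina5 had 0 counts in every library, and Cpb2 had at most 2.

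Plasminogen itself was hardly present: Plg had 0, 0, 0 and 3 counts. Of its 4 cell-surface receptors and binding proteins past the minimum, the quasi-likelihood test called 0 for either factor, DESeq2 and limma-voom 0, and at unadjusted p of at most 0.05 S100a10 was higher with stiffness. S100a10, the light chain that binds plasminogen next to annexin A2, stood at 111, 158, 197 and 186 CPM. Annexin A2, Anxa2, stood at 655, 844, 635 and 744 CPM, and enolase, Eno1, at 1865, 2021, 1755 and 1213 CPM. Plgrkt, a transmembrane plasminogen receptor, lay between 5.94 and 8.95 CPM. The receptors' median log2 ratio was 0.23 in stiff against soft.

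Among 8 partners and clearance receptors in the table, 1 fell with stiffness in the quasi-likelihood test, and 0 were called for the inhibitor. Lrp1, the endocytic receptor that removes complexes of activators with their serpins, fell by 1.61 on the log2 scale (SE 0.261, quasi-likelihood adjusted p = 0.0405). It stood at 5617 CPM in soft, 5627 CPM in soft with A83-01, 1903 CPM in stiff and 1787 CPM in stiff with A83-01. Lrp1 was 2.95-fold lower (2.92 to 2.98) on stiff without the inhibitor and 3.15-fold lower (3.12 to 3.18) with it. A83-01 went with a ratio of 1.002 (0.995 to 1.01) on soft and a 1.06-fold lower level (1.05 to 1.08) on stiff. Mrc2, a collagen receptor that associates with the urokinase receptor, stood at 945, 585, 590 and 247 CPM and did not pass for stiffness (log2 −0.96, quasi-likelihood adjusted p = 0.0811), while DESeq2 and limma-voom called it lower. Vitronectin, Vtn, the matrix ligand of the urokinase receptor, had 19, 31, 29 and 322 counts, and was 8.59-fold higher (6.18 to 13.7) with A83-01 on stiff. Vtn reached the expression minimum through the stiff A83-01 library alone (9.03 CPM), so this ratio and its tests are conditioned by that minimum. Vldlr, a relative of Lrp1 with serpin-complex ligands, stood at 114, 98.6, 228 and 84.0 CPM, the highest in stiff. For the inhibitor DESeq2 called Mrc2 lower, limma-voom called 0, and the unadjusted p was at most 0.05 for Vtn, higher, and for Mrc2, Igf2r and Itgb3, lower.

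Clotting genes, whose thrombin is the other main target of protease nexin-1, were split. Of 8 past the minimum, F5 fell with stiffness in the quasi-likelihood test. DESeq2 called F2r and F3 higher and F5 and Thbd lower with stiffness, and limma-voom F2r higher and F5 lower. Of the same 8, 0 were called for the inhibitor by the quasi-likelihood test, where DESeq2 called F2r, Tfpi2 and Thbd, limma-voom 0, and the same 3 genes had an unadjusted p of at most 0.05. F5, which encodes coagulation factor V, had 1399, 611, 5 and 48 counts and fell by 5.19 on the log2 scale (SE 0.881, quasi-likelihood adjusted p = 0.0448). Tissue factor, F3, the trigger of clotting, stood at 51.5, 51.1, 141 and 76.6 CPM. It was 2.74-fold higher (2.60 to 2.91) in stiff than in soft. Thrombomodulin, Thbd, the endothelial receptor that turns thrombin against clotting, stood at 114, 227, 35.1 and 163 CPM. Its lowest value was in stiff, and A83-01 there went with a 4.63-fold higher level (4.33 to 4.96). Tfpi2, an inhibitor of plasmin and other proteases, stood at 34.2, 12.3, 41.6 and 10.8 CPM, lower in both A83-01 libraries. F2r, the thrombin receptor, lay between 69.8 and 189 CPM.

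**Figure D4:**
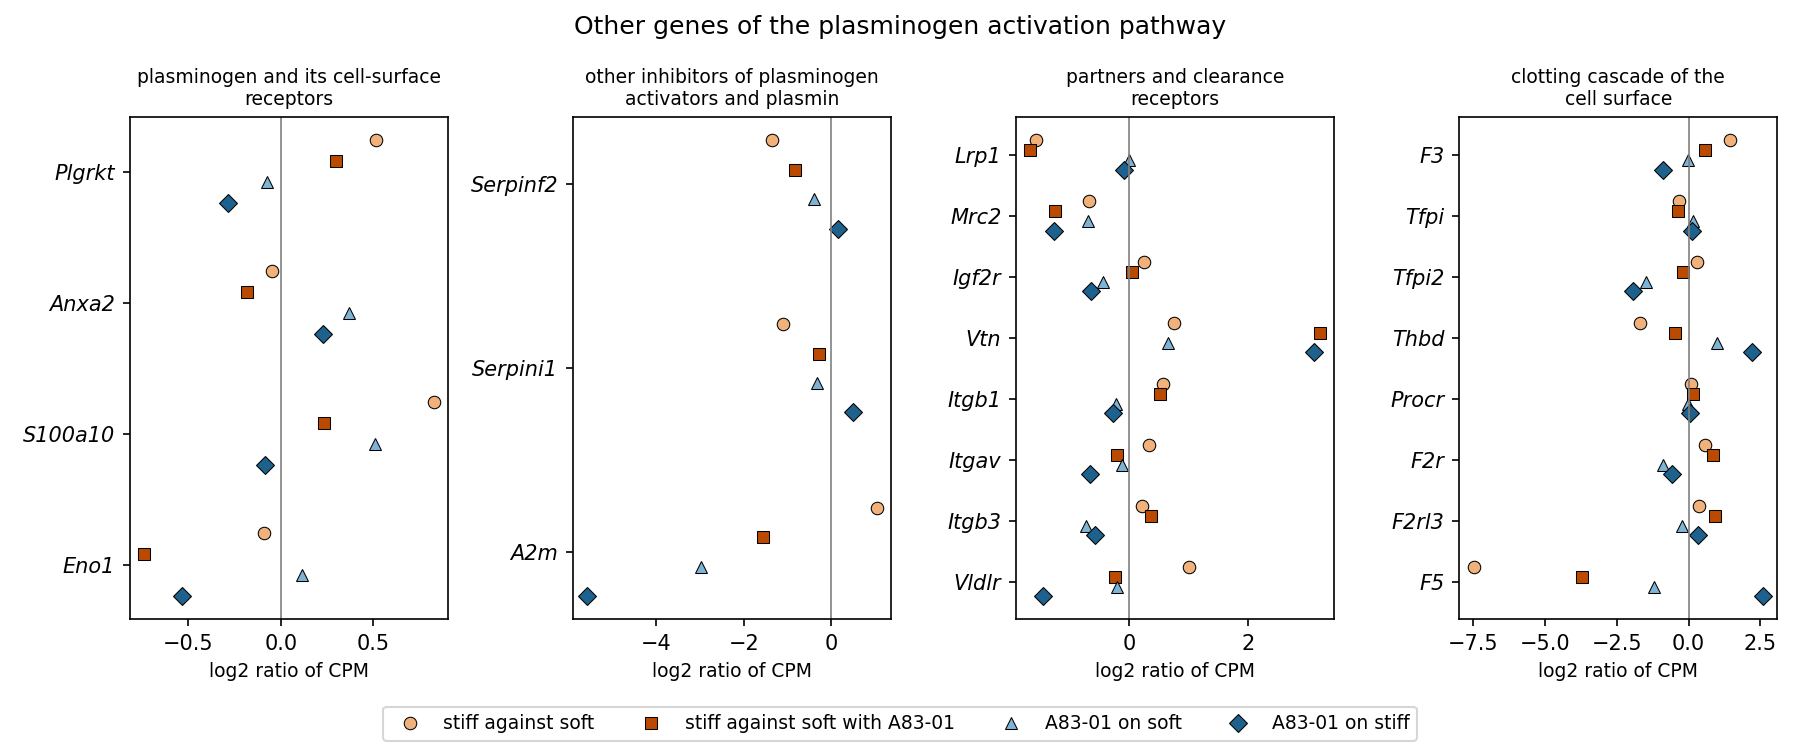
Log2 ratio of TMM-normalised CPM (horizontal axes, with a range of its own in each panel) of the pathway genes analysed here, outside the 6, that reached the expression minimum, in the 4 library pairs given by marker and colour. Lrp1 lies below 0 in both stiffness pairs (−1.56 and −1.66), and F5 is the lowest point of the stiff against soft pair (−7.49).

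The serpin family as a whole was thinly expressed. Beyond the 3 members, 36 further serpins were analysed, of which 8 reached the minimum. The quasi-likelihood test called 0 of the 8 for either factor. DESeq2 called Serpinh1 up with stiffness and down with the inhibitor, limma-voom called 0, and 3 for stiffness (Serpinh1, higher, and Serpinf2 and Serping1, lower) and 0 for the inhibitor had an unadjusted p of at most 0.05. Serpinh1, the collagen chaperone of the endoplasmic reticulum, stood at 3326, 2312, 5975 and 3351 CPM, again highest in stiff. Serping1, the complement C1 inhibitor, stood at 975, 1262, 89.6 and 810 CPM. It was 10.9-fold lower (10.5 to 11.3) in stiff than in soft and 1.56-fold lower (1.54 to 1.58) with A83-01 in both. Serpinb1a, an inhibitor of neutrophil proteases, stood at 0.619 CPM in stiff and 1.38 to 1.94 CPM in the other libraries. The median log2 ratio of the 8 was −0.54 in stiff against soft. It is conditioned by the minimum, which admitted Serpini1 through the untreated soft library alone and Serpinb6b through the stiff libraries alone.

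Cell markers moved alongside the members. On stiff matrix, 6 of 8 pericyte and smooth muscle markers rose in the quasi-likelihood test (Acta2, Tagln, Myh11, Cnn1, Des and Rgs5). The summed level of all 8, with the uncalled Pdgfrb and Cspg4, was 1860, 1201, 8888 and 6527 CPM. Plau and Serpine2 were likewise higher in both stiff libraries. The summed fibroblast level over 7 markers was 58640, 49580, 79580 and 31190 CPM, most of it Col1a1. Without Col1a1 the other 6 summed to 19390, 32000, 10110 and 12110 CPM, lowest in stiff and highest in soft with A83-01. Dcn alone had that order, at 11520, 21950, 1442 and 5279 CPM, so the sum does not speak for the markers in general. In stiff against soft, 4 of the 7 fibroblast markers had a log2 ratio above 0 and 3 below. Pdgfra and Dcn, 2 of the 7, fell with stiffness in the quasi-likelihood test and by limma-voom. DESeq2 did not call Dcn and called Pdgfra and Lum lower and Thy1 higher. The 10 endothelial markers summed to 1840, 1866, 1452 and 2515 CPM, of which Vwf and Plvap fell with stiffness in all 3 tests, and Kdr was called lower by DESeq2 and limma-voom alone. Mesothelial markers summed to at most 8.77 CPM over 8 genes and keratinocyte markers to at most 5.44 CPM over 7. Of 2 mesothelial markers past the minimum, Msln fell with stiffness in all 3 tests, and Wt1 went the other way. Wt1 was 17.2-fold higher (10.7 to 46.4) in stiff than in soft, with an unadjusted quasi-likelihood p of 0.0163. Wt1 reached the minimum through the untreated stiff library alone (5.61 CPM), so its results for either factor are conditioned by it. For stiffness, 0 keratinocyte markers were called by the quasi-likelihood test before or after adjustment, by DESeq2 or by limma-voom. For the inhibitor the quasi-likelihood test and limma-voom called 0 markers of any of these types, while DESeq2 called Vwf, Acta2, Tagln, Cnn1 and Wt1 lower. Unadjusted quasi-likelihood p for the inhibitor was at most 0.05 for those genes and for Adgre1, Cd68, Lyz2, Erg, Tek, Cspg4, Col1a1, Dcn, Dsp and Msln. Dsp reached the minimum through the untreated libraries alone (2.75 CPM in soft and 1.58 CPM in stiff). Its inhibitor result is thus conditioned by the minimum, as is that of Wt1. The part of these shifts in the members' results was not tested.

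For each member, the genes with the most similar profile were sought among 8107 named genes (8108 for Serpinb2) with a mean of at least 10 CPM, by the root mean square difference of centred log2 CPM over the 4 libraries. With 4 libraries such likeness is easily met and carries no test. The nearest to Serpinf1 were Aspn, a small leucine-rich proteoglycan (0.0822), the Wnt receptor Fzd2 (0.105) and Pdlim4 (0.115). Serpine2 had few close neighbours, with 2 genes within 0.25: Kank4 (0.153) and Cadm4 (0.154), followed by the fibrillar collagen Col3a1 (0.255). Plat was nearest to the kinase Pak1 (0.0767), Ptgfrn (0.0886) and the guidance receptor Robo2 (0.0972), with 26 genes within 0.25. Plau was nearest to Nacad (0.128), Tril (0.134) and Pawr (0.159), with 16 within 0.25. Plaur had 174 genes within 0.25, and Sesn2 (0.0524) and Ttc39c (0.0692) were the nearest. Serpinb2 was nearest to Serinc2 (0.127), the metallothionein Mt1 (0.24) and the carbonic anhydrase Car4 (0.271). With 0 and 4 counts in the stiff libraries, the Serpinb2 profile and these distances depend on the prior count of 2. Its log2 ratio of stiff against soft went from −3.23 to −5.11 with a prior count of 0.5.

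Cross comparisons complete the order of levels. Stiff with A83-01 against untreated soft, Serpine2 was 1.5-fold higher (1.44 to 1.55) and Plau 2.68-fold higher (2.46 to 2.92). In the same pair Plat was 2.07-fold lower (1.99 to 2.16), Plaur 2.01-fold lower (1.81 to 2.24) and Serpinf1 2.33-fold lower (2.28 to 2.38). The order was stiff, stiff with A83-01, soft, soft with A83-01 for Serpine2 and stiff, soft, soft with A83-01, stiff with A83-01 for Plat and Plaur. For Serpinf1 the 2 A83-01 libraries came last, with stiff above soft within them. Among neighbours in these orders, the counting interval included equality for stiff and soft of Plaur and for the 2 stiff libraries of Serpinb2, and for no other pair of the 6 genes. The widest span was that of Serpine2 among the well-measured members, 9.68-fold (9.25 to 10.2) between stiff and soft with A83-01.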

How the data were processed

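Oligo(dT)-selected mRNA of 4 rat libraries, each from cells of a culture dish, was read in pairs on a DNBSEQ-T7, per the labels' protocols. The deposited table of counts holds whole reads per gene, not normalised by the authors. A 2nd table holds FPKM, which the authors scaled by transcript length and depth. Per the submitters' processing notes, HISAT2, edgeR and Rnor_6.0 were used. Sources used here give no read counter, annotation or tool version. The protocols mention neither molecular identifiers nor strand marking, so PCR copies count as reads, intervals cover counting error only, and reads of overlapping antisense genes cannot be told apart.

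The 6 genes, the 11 gene lists and the tests were chosen with earlier results of these data known. All 6 members are named. Of a pathway list, genes called by the test and up to 4 with the largest ratio in any library pair are named, as are the 3 genes nearest in profile to each member (2 for Plaur). A few of these genes are not reported here and stayed out of the lists' counts. F2r, Serpinh1 and single markers were named after their values were seen. Ratios were taken between CPM values after TMM scaling, with 2 prior counts, and exact conditional binomial 95% intervals of counting error. Tests used R 4.3.3 with edgeR 4.0.16 (quasi-likelihood, additive model of matrix and inhibitor, 1 residual degree of freedom, Benjamini-Hochberg adjustment over 13634 genes at 0.05), with DESeq2 1.42.0 and limma 3.58.1 as alternatives. The code was tested on simulated data. Nothing says which libraries share animals. No group had replicates, so in the additive model the spread behind the p-values is how far the response to 1 factor differed with the other. That difference may be a true response or technical. Promoters are from RefSeq, build GRCr8 (5 of 6 members matched). Identical-library, filter, scaling, prior and model alternatives were checked, and no 2 libraries were identical. Since the reference build differs from that of the counts, gene coordinates other than those of the printed promoters are not given.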

Additional observations from a re-analysis of the deposited data

Results flagged for a closer look

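In each of 2 contrasts, 1 of the 6 members had responses of opposite sign with counting intervals excluding equality. Such opposite responses were seen in 8.49% of all tested genes for A83-01 and in 8.65% for stiffness. The log2 ratio of A83-01 against none for Plau was −0.60 on soft and 0.33 on stiff matrix. The log2 ratio of stiff against soft for Plat was 0.77 without and −0.52 with A83-01. With 1 library a group, the difference between these responses was not tested against replicate spread. Scaled by total counts the signs were kept, at −0.59 and 0.61 for Plau and 0.53 and −0.48 for Plat.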

How the results depend on the processing

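Members called for stiffness numbered 2. They became 1 with relative log expression size factors (Plau lost), 4 with total counts alone (Serpinb2 and Serpinf1 gained) and 0 without the inhibitor in the model. Members called for the inhibitor numbered 0 and became 3 with DESeq2 and 3 with total counts alone. The inhibitor effect on Plau, −0.13, reversed to 0.018 with total counts alone and to 0.091 without the matrix in the model, with no call in any fit. The cause of these shifts was not tested. Counts of members past 2-fold stayed within 1.5 times under every scaling, prior count and FPKM alternative run, though with total counts or FPKM Plau (stiff against soft) and Plaur (A83-01 on stiff) dropped below 2-fold. A threshold of 1.5-fold raised the count for A83-01 on soft from 3 to 5. Over all genes, stiffness calls of 320 up and 449 down became 574 and 737 with DESeq2, 467 and 622 with limma-voom, 621 and 1136 with total counts alone, 242 and 323 with relative log expression factors and 13 and 17 without the inhibitor. Inhibitor calls of 0 up and 6 down became 219 and 244 with DESeq2, 563 and 271 with total counts alone, 10 and 17 without the filter, 0 and 3 with limma-voom, and 0 and 0 with relative log expression factors or without the matrix. At a minimum of 10 CPM Serpinb2 was not tested. Depth limits Serpinb2 alone among the members, since its highest count was 48. No paired analysis was possible because the labels tie no libraries to a shared animal or batch, and the additive model compares each factor within the levels of the other.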
